A study of Mus musculus with 14 samples.

Results

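The insulin-like growth factor (IGF) system was followed as 10 genes in mouse hippocampus: the ligands Igf1 and Igf2, the receptors Igf1r, Igf2r and Insr, and the binding proteins Igfbp2, Igfbp3, Igfbp4, Igfbp5 and Igfbp7. They were chosen by gene symbol, not by any measured value. All 10 were found, among 18693 genes with an assembled transcript in at least 1 library and 81411 loci in each of the authors' deposited tables. The study crossed genotype with treatment in C57BL6 mice aged 30 days. Mice were wild type or heterozygous for a βGeo gene trap allele of Kmt2d, written Kmt2d+/βGeo, and are called mutants here. Kmt2d encodes a histone H3 lysine methyltransferase. From 2 weeks of age, mice were gavaged for 2 weeks with methylcellulose (vehicle) or with TAK-418 in it at 1 mg/kg/day. TAK-418 inhibits LSD1, a histone demethylase encoded by Kdm1a. The libraries numbered 3 from vehicle wild types, 3 from vehicle mutants, 5 from TAK-418-treated wild types and 3 from TAK-418-treated mutants, although the series text gives 3 to 4 mice a group. All groups shared the strain, the age, the tissue and the gavage, and the labels name no tissue restriction of the mutant allele. Hippocampal tissue holds many cell types. The labels name neither the sex of the mice nor litters or pooling. Nothing in them says outright that each library is 1 mouse, so the p-values measure the spread between these libraries.

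IGF-I and IGF-II are secreted peptides related to insulin. Both act through the type 1 receptor encoded by Igf1r, a tyrosine kinase, and IGF-II also acts through the form of the insulin receptor that lacks the segment encoded by exon 11 of Insr. The mannose 6-phosphate receptor encoded by Igf2r takes up IGF-II for degradation. The IGF binding proteins hold the peptides in the extracellular fluid and set how much reaches the receptors. In the adult brain IGF-II and IGFBP-2 are well known products of the choroid plexus and the leptomeninges, while neurons, glia and vessels make other members.

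The ligand genes lie at chr10:87858265-87937042 on the plus strand (Igf1) and chr7:142650766-142666816 on the minus strand (Igf2), in GRCm38 with GENCODE M21 annotation. The receptor genes are Igf1r (chr7:67952827-68233668, plus), Igf2r (chr17:12682406-12769664, minus) and Insr (chr8:3122061-3279617, minus). Igfbp2 (chr1:72824503-72852474, plus) and Igfbp5 (chr1:72857932-72874884, minus) are close neighbours. The other binding protein genes are Igfbp3 (chr11:7206086-7213923, minus), Igfbp4 (chr11:99041244-99054392, plus) and Igfbp7 (chr5:77349240-77408041, minus). Each of the 10 had an assembled transcript with several exons in 14 of 14 libraries.

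Igf2 has several start sites, and the deposited transcripts show which first exons were assembled in these hippocampi. Below are the 250 bases upstream of 3 of its 4 RefSeq start sites (build GRCm38.p6, minus strand of chromosome 7), and of the start sites of Igfbp2 and Igfbp7, because these 3 genes were higher in 2 of the libraries than in all others. The start sites of Igf2 are numbered P0 to P3 in their order along the gene, and P3 lies nearest the coding exons. Capitals mark each GC box, searched as GGGCGG on both strands (CCGCCC on the other), the site of Sp1-type factors.
Igf2 P3, chr7:142657497-142657746, minus strand: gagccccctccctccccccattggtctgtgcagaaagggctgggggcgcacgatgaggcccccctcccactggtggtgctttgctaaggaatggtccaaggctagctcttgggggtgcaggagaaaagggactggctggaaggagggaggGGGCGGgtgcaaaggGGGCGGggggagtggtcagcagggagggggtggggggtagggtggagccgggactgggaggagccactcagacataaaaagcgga
Igf2 P2, chr7:142658805-142659054, minus strand: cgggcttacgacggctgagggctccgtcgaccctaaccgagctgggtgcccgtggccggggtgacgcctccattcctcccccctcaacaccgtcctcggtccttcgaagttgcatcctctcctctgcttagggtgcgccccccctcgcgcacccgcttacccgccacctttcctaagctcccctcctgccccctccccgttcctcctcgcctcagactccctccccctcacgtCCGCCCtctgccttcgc
Igf2 P1, chr7:142661272-142661521, minus strand: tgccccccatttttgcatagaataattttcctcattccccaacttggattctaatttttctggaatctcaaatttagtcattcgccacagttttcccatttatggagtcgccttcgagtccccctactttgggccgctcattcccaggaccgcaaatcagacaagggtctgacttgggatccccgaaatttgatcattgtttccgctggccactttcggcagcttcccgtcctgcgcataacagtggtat
Igfbp2, chr1:72824230-72824479, plus strand: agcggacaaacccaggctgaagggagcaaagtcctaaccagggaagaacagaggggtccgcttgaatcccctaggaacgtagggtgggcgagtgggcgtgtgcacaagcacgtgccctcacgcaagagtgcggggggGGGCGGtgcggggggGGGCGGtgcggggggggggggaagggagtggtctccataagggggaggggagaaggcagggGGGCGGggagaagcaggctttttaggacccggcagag
Igfbp7, chr5:77408046-77408295, minus strand: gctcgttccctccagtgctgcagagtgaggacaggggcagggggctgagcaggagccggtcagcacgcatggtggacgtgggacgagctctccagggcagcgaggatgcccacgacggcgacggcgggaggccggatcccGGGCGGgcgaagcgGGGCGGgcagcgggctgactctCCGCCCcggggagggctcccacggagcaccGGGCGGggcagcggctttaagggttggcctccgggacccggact
The GC box occurred 2 times upstream of P3, 1 time upstream of P2, 3 times upstream of Igfbp2 and 4 times upstream of Igfbp7. It occurred 0 times upstream of P1 and of P0. Of 32851 RefSeq promoter windows of the same 250 bases, 32.7% held it. A CCAAT box (CCAAT or ATTGG) was found 1 time upstream of P3 and 0 times in the other windows named here, against 33.8% of all windows. The letters TATAAA (or TTTATA) were in none of the 6 windows, and in 12.4% of all windows. These matches describe the letters and were not tested for binding.

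Most of the assembled Igf2 abundance carried the P3 first exon. Transcripts were matched by the inner edge of the first exon, not by their outer end. A transcript with several exons began within 250 bases of the RefSeq start site in 14 libraries for P3, 10 for P2 and 1 for P1. The share of assembled Igf2 abundance with the P3 first exon was 86.1% ± 1.60 (SD, n = 3) in vehicle wild types, 90.8% ± 3.58 (SD, n = 3) in vehicle mutants, 85.6% ± 8.26 (SD, n = 5) in treated wild types and 87.4% ± 3.07 (SD, n = 3) in treated mutants. It ranged from 72.4% to 94.2% over the 14 libraries, and the groups overlapped. The P2 exon took 5.77% to 19.6% and was assembled in all 14 libraries. The P1 exon was assembled in 3 libraries, treated wild type replicates 4 and 5 and treated mutant replicate 3, at 4.75%, 7.98% and 5.59%. The most upstream P0 exon, known from placenta, was assembled in 0 of 14. This look at first exons was added after the assembled transcripts were seen and is a description. The depth of reads behind a single transcript model is not in the files, so no interval was computed.

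**Figure D1:**
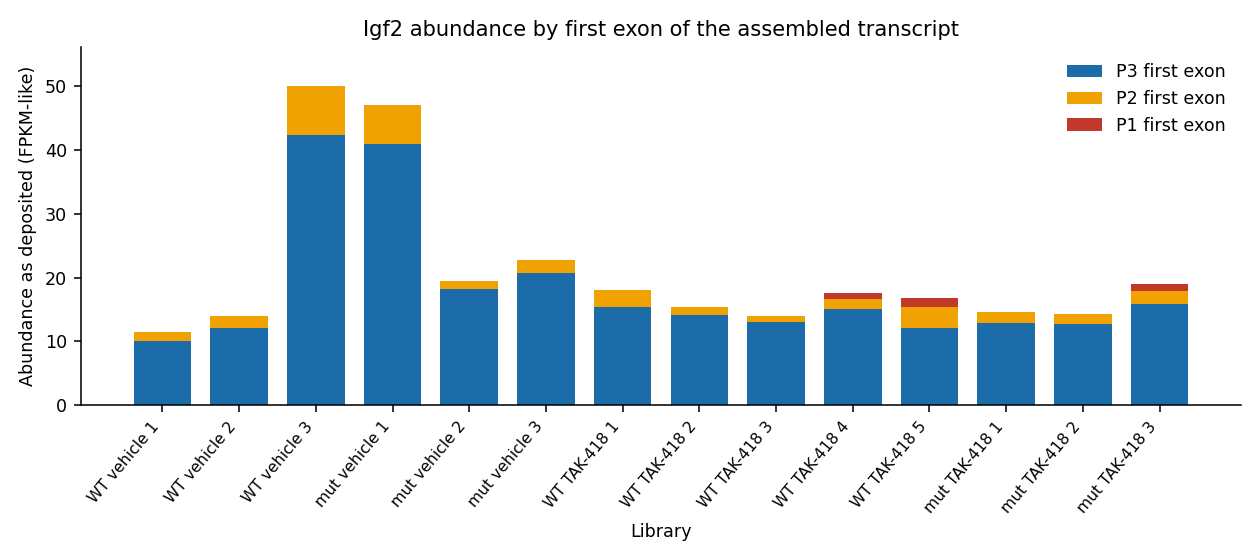
Igf2 abundance as deposited (FPKM-like units) in each of the 14 libraries, stacked by the first exon of the assembled transcripts (P3 blue, P2 yellow, P1 red). P3 formed 72.4% to 94.2% of every bar, also in the tall bars of vehicle wild type replicate 3 and vehicle mutant replicate 1.

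Levels are given as scaled abundance: the summed abundance of a gene's assembled transcripts in a library, per length and per library total (FPKM-like), scaled between libraries by the median ratio over all genes. In vehicle wild types the binding proteins led. Igfbp4 was highest at 58.9 ± 4.32 (SD, n = 3), followed by Igfbp5 at 39.98 ± 4.15 (SD, n = 3) and Igfbp2 at 35.5 ± 28.2 (SD, n = 3). Igf2 followed at 24.1 ± 19.9 (SD, n = 3), Igfbp7 at 20.1 ± 5.15 (SD, n = 3) and Igfbp3 at 14.2 ± 3.52 (SD, n = 3). The receptors lay close together, with Igf1r at 9.50 ± 0.885, Insr at 7.53 ± 1.67 and Igf2r at 7.35 ± 0.819 (SD, n = 3 each). Igf1 was lowest at 2.14 ± 0.255 (SD, n = 3), at the 24.4th percentile of the 16325 genes listed in these libraries, while Igfbp4 was at the 89.6th. In this order the ranges of neighbours did not overlap between Igfbp4 and Igfbp5, between Igfbp7 and Igfbp3, and between Igf2r and Igf1, and all other neighbours overlapped. The means of Igf2 and Igfbp2 rested on vehicle wild type replicate 3. Without it they were 12.6 and 19.2, while Igfbp7 was 17.1 and Igfbp3 13.1, so Igf2 came below both of these. Igfbp4 was first, Igfbp5 second and Igf1 last in all 4 groups.

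**Figure D2:**
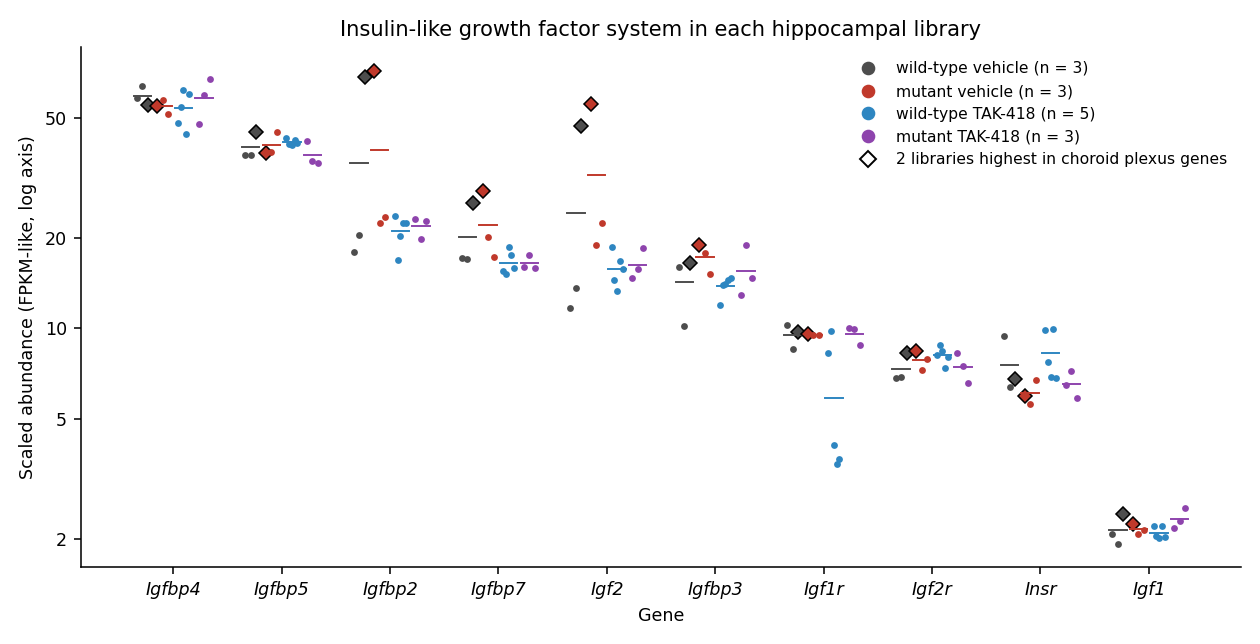
Scaled abundance (FPKM-like, log axis) of the 10 genes, 1 point per library, coloured by group, with a short line at each group mean; diamonds are vehicle wild type replicate 3 and vehicle mutant replicate 1. The diamonds stand above all other libraries for Igf2, Igfbp2 and Igfbp7, and 3 treated wild type points stand low for Igf1r.

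For the library-wide facts, relative depth (the inverse of the smallest step between values, for comparison only) was 168 in replicate 1 of the treated wild types and 35.1 to 59.98 in the other 13. Kmt2d was 13.8 to 14.2 in vehicle wild types, 10.6 to 14.4 in vehicle mutants, 12.5 to 17.99 in treated wild types and 9.34 to 14.6 in treated mutants, so genotypes overlapped. Its transcripts are summed over the whole gene and do not separate the trapped allele. Camk2a, a marker of excitatory neurons, was at 1028 to 1219 in all libraries, and all 9 hippocampal excitatory neuron markers were listed. Xist, which is expressed in females, was listed in 2 of 3 vehicle wild types, 1 of 3 vehicle mutants, 2 of 5 treated wild types and 1 of 3 treated mutants. The part of sex in the results was not tested. Libraries of vehicle wild type replicate 3 and vehicle mutant replicate 1 stood apart by genes of the choroid plexus, the epithelium that makes cerebrospinal fluid. Of the 18 choroid plexus genes on the list used here, 17 had their 2 highest values in these libraries. Ttr, which encodes transthyretin and is the most abundant of the list, was at 6368 and 4905 there, at 884 in vehicle mutant replicate 3, at 589.8 in treated mutant replicate 1, and between 6.49 and 36.2 in the other 10. Kl, second in abundance, ranged from 5.44 to 41.6, with a median of 8.68. Ttr, Kl, Folr1, Prlr, Sostdc1, Slc13a4 and Msx1 were listed in all 14 libraries, and the other 11 genes of the list were at 0 in some. Of these, F5 was listed most often, in 13, and Cldn2 and Tmem72 least often, in 4. The summed level of the list was 27.8 to 6573 in vehicle wild types, 52.4 to 5151 in vehicle mutants, 22.5 to 55.8 in treated wild types and 29.9 to 625 in treated mutants. So both libraries with high choroid plexus genes were vehicle libraries. Of the 8 marker lists for other cell types, leptomeninges and fibroblasts had 2 of 13 listed genes highest in those 2 libraries, and endothelial, mural, astrocyte, microglia, oligodendrocyte, excitatory neuron and interneuron lists had 0.

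Igf2, the ligand IGF-II, was at 11.7, 13.6 and 47.1 in vehicle wild type replicates 1 to 3 and at 55.4, 18.9 and 22.4 in vehicle mutant replicates 1 to 3. The 5 treated wild types had 18.6, 14.4, 13.3, 16.8 and 15.7, and the 3 treated mutants 14.7, 15.7 and 18.4. The highest 2 values were those of the 2 libraries high in choroid plexus genes, and their mean was 3.26 times the median of the other 12. Vehicle mutants were the one group whose libraries all lay above those of both TAK-418 groups, though its lowest value of 18.9 was near the 18.6 and 18.4 at the top of those groups. Between genotypes under vehicle the values overlapped.

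Igfbp2, a binding protein with a preference for IGF-II, was at 17.96, 20.47 and 68.0 in vehicle wild types, while vehicle mutants had 71.4, 22.4 and 23.4. It was at 23.6, 16.8, 20.3, 22.4 and 22.4 in treated wild types and at 23.1, 19.9 and 22.7 in treated mutants. The same 2 libraries stood apart, at 3.11 times the median of the other 12, which spanned 16.8 to 23.6. Among those 12 the groups overlapped, except that the 2 vehicle mutants left, at 22.4 and 23.4, lay above the 2 vehicle wild types left. How many of all genes separate so, 2 libraries against 2, was not computed.

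Igfbp7, a secreted protein of vessels and epithelia that binds IGFs weakly, was at 17.2, 17 and 26.0 in vehicle wild types, while vehicle mutants had 28.7, 20.02 and 17.3. Values were 15.4, 15.1, 18.6, 17.5 and 15.9 in treated wild types and 16.0, 17.5 and 15.8 in treated mutants. Those 2 libraries were again highest, at 1.60 times the median of the others. The share of all genes with their 2 highest values in these libraries was not computed. For the other 7 members the 2 libraries lay within the range of the rest, except that Igfbp3 in vehicle mutant replicate 1 was 18.93 against a highest other value of 18.91, and Igfbp5 in vehicle wild type replicate 3 was 44.77 against 44.68.

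On the choroid plexus score, the mean log2 level of the 18 genes, the libraries fell into 2 at 3.88 and 4.05 and 12 at 0.62 to 2.06. So no correlation over all 14 is given for it. The 12 were not even either: treated mutant replicate 1 was at 1.69 and vehicle mutant replicate 3 at 2.06. The rest lay at 0.62 to 0.95, and no correlation was computed for them alone. Within the 12 libraries, Pearson's r with the score was 0.49 for Igf2 (Spearman's rho 0.573), 0.503 for Igfbp2 (rho 0.72) and -0.0645 for Igfbp7 (rho 0.0979). Permutation p-values of r were 0.114, 0.0643 and 0.865, and of rho 0.0556, 0.0109 and 0.766. Adjusted by Benjamini-Hochberg over the 20 relations computed (10 genes against 2 scores), those of r were 0.306, 0.267 and 0.977 and those of rho 0.251, 0.109 and 0.841. So none of the 3 had an adjusted p under 0.05 within the 12. The coefficients of Igf2 and Igfbp2 stayed positive there, and that of Igfbp7 was near 0. The leptomeningeal score (13 listed genes, led by Dcn at 23.9 to 44.4 and Mgp at 12.05 to 29.5) varied without a gap, from 2.12 to 2.65. Over the 14 libraries Igf2 and this score were related, with r = 0.754 (permutation p = 0.00047, adjusted 0.0038) and rho = 0.908 (permutation p = 5e-05, adjusted 0.001). The 2 libraries farthest from the median of this score were vehicle mutant replicate 1 and vehicle wild type replicate 1. Without them r was 0.668 (permutation p = 0.00477, adjusted 0.0954) and rho 0.853 (permutation p = 0.0007, adjusted 0.014). Vehicle wild type replicate 3, with Igf2 at 47.1, stayed in, so the 2 libraries highest in Igf2 were not left out together. With abundances as deposited r was 0.665 (permutation p = 0.0111, adjusted 0.0554), which missed the threshold of 0.05. Leaving out any 1 library gave an adjusted permutation p of 0.001 to 0.0204. For Igfbp2 r was 0.634 (permutation p = 0.00909, adjusted 0.0364) and rho 0.662 (adjusted permutation p = 0.0608), and r was 0.50 (adjusted permutation p = 0.267) without those 2. With 1 library left out, the adjusted permutation p of Igfbp2 was over 0.05 for 7 of the 14 (vehicle wild type replicates 2 and 3, vehicle mutant replicate 1, treated wild type replicates 2, 3 and 4 and treated mutant replicate 1), the highest being 0.144. Both scores come from the same libraries and scaling as the genes. The permutations shuffled libraries without regard to group, so differences between groups enter these relations. In tissue of mixed cells, more cells of a type and more RNA per cell cannot be told apart.

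**Figure D3:**
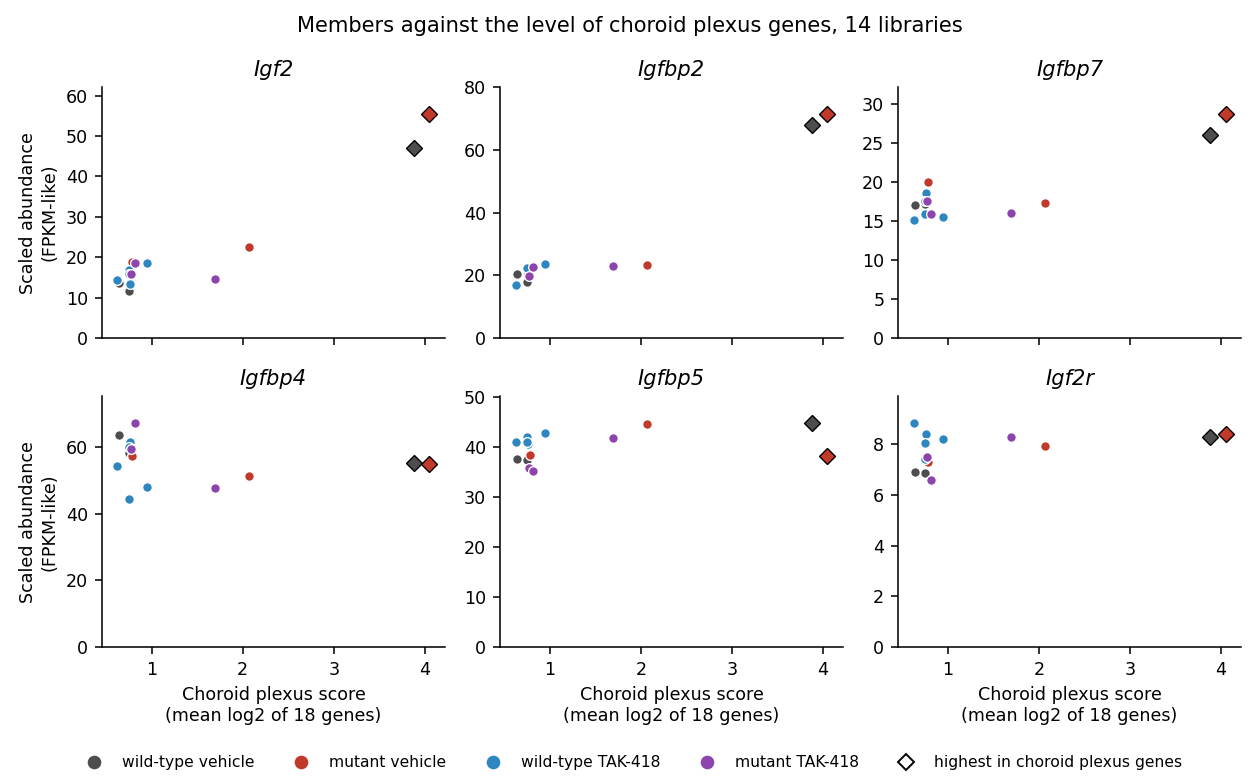
Scaled abundance (FPKM-like) of 6 of the genes against the choroid plexus score (mean log2 level of 18 genes), 1 point per library, coloured by group. Diamonds, at scores of 3.88 and 4.05, stand above the other 12 libraries for Igf2, Igfbp2 and Igfbp7 and among them, or at their upper edge for Igfbp5, in the other 3 panels.

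The genes whose pattern over the 14 libraries was most like that of Igf2, among those with a value in every library, were Dab2 (Pearson's r 0.985), Slc13a4 (r 0.975) and Slc31a1 (r 0.97). For Igfbp2 they were Cdkn1c (r 0.975), Slc13a4 (r 0.974) and Slc31a1 (r 0.974), and for Igfbp7 Cd59a (r 0.959), Alpl (r 0.952) and Pcp4l1 (r 0.948). Slc13a4 is itself on the choroid plexus list. Over the 12 libraries these values were lower, at 0.896, 0.789 and 0.743 for Igf2, at 0.594, 0.64 and 0.551 for Igfbp2 and at 0.721, 0.734 and 0.656 for Igfbp7. Igf2 and Igfbp2 had r = 0.964 with each other over the 14 libraries and 0.701 over the 12. Igf2 and Igfbp7 had 0.864 and 0.0426, so the likeness of that pair lay in the 2 libraries. For the other members the closest genes were Yap1 for Igf1 (r 0.845), Pced1b for Igf1r (r 0.818), D430042O09Rik for Igf2r (r 0.933), Eloa for Insr (r 0.818), Prpf40b for Igfbp3 (r 0.893), Gabarapl2 for Igfbp4 (r 0.87) and Nf2 for Igfbp5 (r 0.89). Igfbp4 and Igfbp5, the 2 most abundant members, ran opposite to each other, with r = -0.666 over the 14 and -0.74 over the 12. Of all pairs of members this pair had the lowest r. Each closest gene was the highest of 13273 genes compared, so its r is a maximum picked from many. All these values describe 14 libraries and carry no test.

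Group differences were tested with limma on log2(scaled abundance + 0.88) over 16551 genes, with Benjamini-Hochberg adjustment over all of them. This scale understates the change of low genes such as Igf1. For all 9 contrasts, 0 of the 10 members had an adjusted p under 0.05. Over all genes the share called was 0% for the genotype effect under vehicle, for the drug effect in wild types and for vehicle mutants against treated wild types. It was 0.0121% for the genotype effect under TAK-418 and for the drug effect over both genotypes. It was 0.00604% for 4 contrasts: the interaction, the genotype effect over both treatments, the drug effect in mutants, and treated mutants set against vehicle wild types. At an unadjusted p under 0.05, 7 of the 90 values of member and contrast qualified.

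Under vehicle, mutants differed from wild types by -0.25 to 0.52 on the log2 scale over the 10 genes, with 8 above 0 and a median of 0.05. Under TAK-418 the genotype difference ran from -0.29 to 0.74 with 6 above 0, and the treated minus vehicle difference ran from -0.79 to 0.09 in mutants with 4 above 0 and from -0.72 to 0.14 in wild types with 3 above 0. The median over all genes lay between -0.0032 and 0.0044 in every contrast. At an unadjusted p under 0.05 there were 0 members for the genotype effect under vehicle, against 5.47% of all genes, and 0 for the drug effect in mutants, against 4.39%. Treated mutants against vehicle wild types had 0 against 5.37%, and the interaction 0 against 4.44%. There was 1 of 10 for the genotype effect under TAK-418 (4.93% of all genes), 1 for the drug effect in wild types (8.41%), 1 for the genotype effect over both treatments (5.88%) and 1 for the drug effect over both genotypes (8.28%). Vehicle mutants against treated wild types, a contrast added after the deposited tables were seen, had 3 of 10 against 9.3%. These are counts of 1 to 3 genes.

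**Figure D4:**
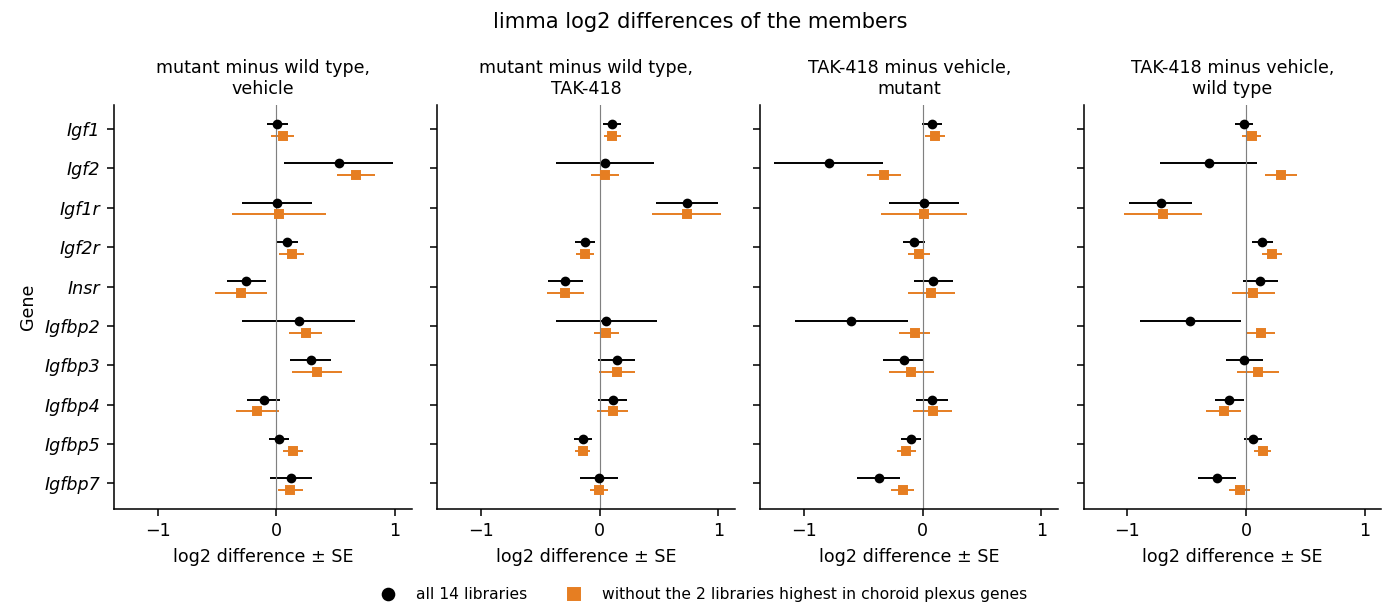
limma log2 differences with their standard errors for the 10 genes in 4 contrasts, with all 14 libraries (black circles) and without the 2 libraries highest in choroid plexus genes (orange squares). For Igf2 and Igfbp2 the standard errors are shorter without those libraries, and the drug effect in wild types moves from below 0 to above 0.

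Igf2 was -0.79 (SE 0.461) on the log2 scale in treated against vehicle mutants (limma adjusted p = 1), where the groups of 3 did not overlap, as in 8.19% of all genes. An exact two-sided permutation test of 3 against 3 libraries gave p = 0.1, the smallest it allows. Of 60 exact permutation tests in all (10 genes in 6 pairs of groups), those of 3 against 3 could not reach 0.05. In all, 2 gave a p under 0.05: Igf2 and Igfbp3 in vehicle mutants against treated wild types. That contrast was added after the deposited tables were seen. After Benjamini-Hochberg adjustment over the 60, 0 were under 0.05, the smallest adjusted permutation p being 0.536. Against treated wild types, Igf2 in vehicle mutants was 0.84 higher (SE 0.413, limma adjusted p = 0.564). There the groups again did not overlap, and the exact permutation p was 0.0179, the smallest for 3 against 5. Igf2, Insr and Igfbp3 were the 3 of 10 members without overlap in that contrast, against 6.24% of all genes. Without the 2 libraries high in choroid plexus genes the Igf2 difference was 0.38 (SE 0.132, limma adjusted p = 0.653). The same fit gave 0.67 (SE 0.158, unadjusted p = 0.00182, limma adjusted p = 0.624) for mutants against wild types under vehicle, 2 libraries against 2, where the fit with all libraries gave 0.52 (SE 0.461). It gave -0.33 (SE 0.144, limma adjusted p = 1) for the drug effect in mutants. In wild types the drug difference of Igf2 turned from -0.32 (SE 0.413) with all libraries to 0.29 (SE 0.132, limma adjusted p = 0.55) without the 2. The 2 vehicle mutants left had 18.9 and 22.4, the highest of the 12, and the 2 wild-type ones 11.7 and 13.6. No share of all genes with such a lack of overlap was computed for 2 libraries against 2. Vehicle mutant replicate 3, at 22.4, also had the third highest Ttr. On the leptomeningeal score, the 2 vehicle wild types left were at 2.124 and 2.217, the lowest of the 14 libraries. Vehicle mutant replicates 2 and 3 were at 2.635 and 2.504, and the treated libraries at 2.264 to 2.543. The part of Ttr and of this score in the difference was not tested. These Igf2 values without the 2 libraries were singled out after they had been seen.

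Igfbp2 was 0.66 higher (SE 0.427, limma adjusted p = 0.633) in vehicle mutants than in treated wild types, and 0.12 (SE 0.119, limma adjusted p = 0.866) without the 2 libraries. In treated mutants against vehicle wild types it was -0.41 (SE 0.477, limma adjusted p = 0.998), and 0.18 (SE 0.13, limma adjusted p = 0.973) without them, so the direction turned. Leaving out vehicle wild type replicate 3 alone also gave 0.18. Igfbp7 was -0.31 (SE 0.121, unadjusted p = 0.0259, limma adjusted p = 0.547) in TAK-418 against vehicle over both genotypes and -0.11 (SE 0.0652, limma adjusted p = 0.782) without them. Against treated wild types, vehicle mutants had 0.37 more Igfbp7 (SE 0.161, unadjusted p = 0.0419, limma adjusted p = 0.514), and 0.17 (SE 0.0881, limma adjusted p = 0.785) without them.

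Igfbp3, which carries most IGF in blood plasma, was at 16.0, 10.2 and 16.5 in vehicle wild types, while vehicle mutants had 18.9, 17.7 and 15.2. It was at 11.9, 13.96, 14.1, 14.4 and 14.7 in treated wild types and 12.9, 18.9 and 14.7 in treated mutants. Vehicle mutants were 0.30 above treated wild types (SE 0.155, limma adjusted p = 0.576; exact permutation p = 0.0179, the smallest for 3 against 5). All 3 vehicle mutants lay above all 5 treated wild types, by a gap from 14.7 to 15.2. Without the 2 libraries the difference was 0.24 (SE 0.174, limma adjusted p = 0.85).

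Igfbp4, a binding protein that restrains IGF action until the protease PAPP-A cuts it, ranged from 44.3 to 67.1 over the 14 libraries with a median of 56.2. Its mean was 54.5 ± 2.94 (SD, n = 3) for vehicle mutants, 53.7 ± 7.50 (SD, n = 5) for treated wild types and 58.1 ± 9.82 (SD, n = 3) for treated mutants, beside the 58.9 of vehicle wild types. Igfbp5, made by several neural and vascular cells, ranged from 35.3 to 44.8 with a median of 40.8, and its mean was 40.5 ± 3.64 (SD, n = 3), 41.5 ± 0.918 (SD, n = 5) and 37.7 ± 3.66 (SD, n = 3) for the same 3 groups. Both were close to level across the groups, whose ranges overlapped. Neither had an unadjusted p under 0.05 in any contrast. Igf1, whose peptide is a growth factor for neurons and glia, ranged from 1.93 to 2.54, and its group means were 2.14 ± 0.255 (SD, n = 3) in vehicle wild types, 2.15 ± 0.0901 (SD, n = 3) in vehicle mutants, 2.1 ± 0.0962 (SD, n = 5) in treated wild types and 2.33 ± 0.188 (SD, n = 3) in treated mutants. Igf2r ranged from 6.57 to 8.81 with all groups overlapping, at means of 7.86 ± 0.553 (SD, n = 3) for vehicle mutants, 8.16 ± 0.519 (SD, n = 5) for treated wild types and 7.44 ± 0.849 (SD, n = 3) for treated mutants.

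Igf1r, the main signalling receptor for both ligands, was even in 11 of the 14 libraries. It was at 10.2, 8.52 and 9.75 in vehicle wild types. Vehicle mutants had 9.58, 9.52 and 9.51, and treated mutants 10.03, 9.98 and 8.81. In treated wild types it was at 8.30, 9.78, 4.11, 3.54 and 3.69. So 3 of these 5 libraries stood below every other library, and the other two lay among the rest. TAK-418 against vehicle in wild types was -0.72 (SE 0.264, unadjusted p = 0.0188, limma adjusted p = 0.478), and -0.35 (limma adjusted p = 0.763) when single-exon pieces were not summed. Under TAK-418, mutants were 0.74 above wild types (SE 0.264, unadjusted p = 0.0167, limma adjusted p = 0.924), and vehicle mutants were 0.73 above treated wild types (SE 0.264, limma adjusted p = 0.442). The authors' deposited tables gave no such difference: their group values for Igf1r were 7.20 to 7.52 FPKM in all 4 groups, with 7.25 in vehicle wild types and 7.52 in treated wild types. The assembled transcript models differed among the libraries. Of the 3 low libraries, replicate 3 had a model of 4089 bases whose last exon held 361 bases, while replicates 4 and 5 had models of 11221 and 11080 bases with a last exon of 7486 and 7345 bases. Vehicle wild type replicate 3 had a model of 4112 bases at an abundance of 4.34 and 2 single-exon pieces at 5.25 and 0.769, which were summed. The part of transcript assembly in the low values was not tested.

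Insr, the insulin receptor, was at 9.44, 6.36 and 6.78 in vehicle wild types and at 9.90, 7.71, 6.92, 9.93 and 6.83 in treated wild types. Vehicle mutants had 5.95, 5.61 and 6.73, and treated mutants 6.49, 7.21 and 5.89. All but 1 of the 6 mutant values lay below 7. Of the 8 wild-type values, 4 lay above 7.5. The rest, at 6.36, 6.78, 6.92 and 6.83, also lay below 7, so the genotypes overlapped. Over both treatments mutants were -0.27 (SE 0.11, unadjusted p = 0.0302, limma adjusted p = 0.843) from wild types, and vehicle mutants were -0.38 (SE 0.147, unadjusted p = 0.0257, limma adjusted p = 0.474) from treated wild types. In the authors' deposited tables Insr was 6.29 to 6.70 FPKM in all groups, with 6.29 in vehicle mutants and 6.42 in vehicle wild types in the table of those 2 groups.

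Alternative exons were read from the assembled introns, because both genes make known protein forms by them. Exon 11 of Insr has 36 bases, which is 12 codons, and separates isoform A, without it, from isoform B. Exon 5 of Igf1 has 52 bases and changes the reading frame of the end of the precursor peptide. Both are shown whole, in capitals because the entire exon is the part in question, from the GENCODE M21 transcripts of GRCm38.
Insr exon 11, chr8:3181702-3181737, minus strand: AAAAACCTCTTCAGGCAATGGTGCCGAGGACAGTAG
Igf1 exon 5, chr10:87915298-87915349, plus strand: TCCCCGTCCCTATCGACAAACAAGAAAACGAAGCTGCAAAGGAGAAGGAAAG
Every assembled Insr transcript that crossed the site skipped exon 11, in 14 of 14 libraries, so isoform A was the form listed. A minor form may stay unassembled at this depth. Igf1 transcripts with exon 5 were assembled in 5 libraries: vehicle wild type replicate 3 (27.6% of the deciding abundance), treated wild type replicates 1 to 3 (5.12%, 33.7% and 11.1%) and treated mutant replicate 2 (18.5%). All 3 vehicle mutants listed 0%. The exact permutation test of the Igf1 share in 5 pairs of groups gave 0 p-values under 0.05, the smallest being 0.857, and groups overlapped in each. The alternative leader of Igf1 known as class 2 was assembled in 3 libraries, at 5.12% and 24.7% in treated wild type replicates 1 and 2 and 4.99% in treated mutant replicate 1, and all other leader abundance was class 1.

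The authors' deposited tables pool the libraries of a group and give 1 FPKM value for each, with no spread. They tested 11 loci of the 10 genes in each of 4 comparisons, with 2 loci for Igfbp3. In vehicle mutants over treated wild types, 3 were called at a q of 0.05 or less, against 0.611% of all loci tested. Igf2 went from 14.4 to 31.7 FPKM (log2 1.14, q = 0.00995), at a locus the authors' deposited table names together with RP23-209O22.2. Igfbp2 went from 16.1 to 30.1 FPKM (log2 0.90, q = 0.00995 in the authors' deposited table) and Igfbp3 from 9.20 to 11.95 FPKM (log2 0.38, q = 0.0418 in the same table). In treated mutants over vehicle wild types 1 was called, against 0.324% of loci: Igfbp2, which went from 27.99 to 17.01 FPKM (log2 -0.72, q = 0.0185 in the authors' deposited table). Igf2 there went from 23.4 to 15.6 FPKM with a q of 0.0784. The authors' deposited tables of mutants over wild types called 0 of 11 under vehicle, against 0.224% of loci, and 0 of 11 under TAK-418, against 0.218%. Of the 2 libraries highest in choroid plexus genes, 1 is a vehicle mutant and 1 a vehicle wild type. Among the treated libraries, mutant replicate 1 had a summed choroid plexus level of 625. The part of these libraries in the deposited calls was not tested. The tables share groups with each other, so their calls do not count separately.

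**Figure D5:**
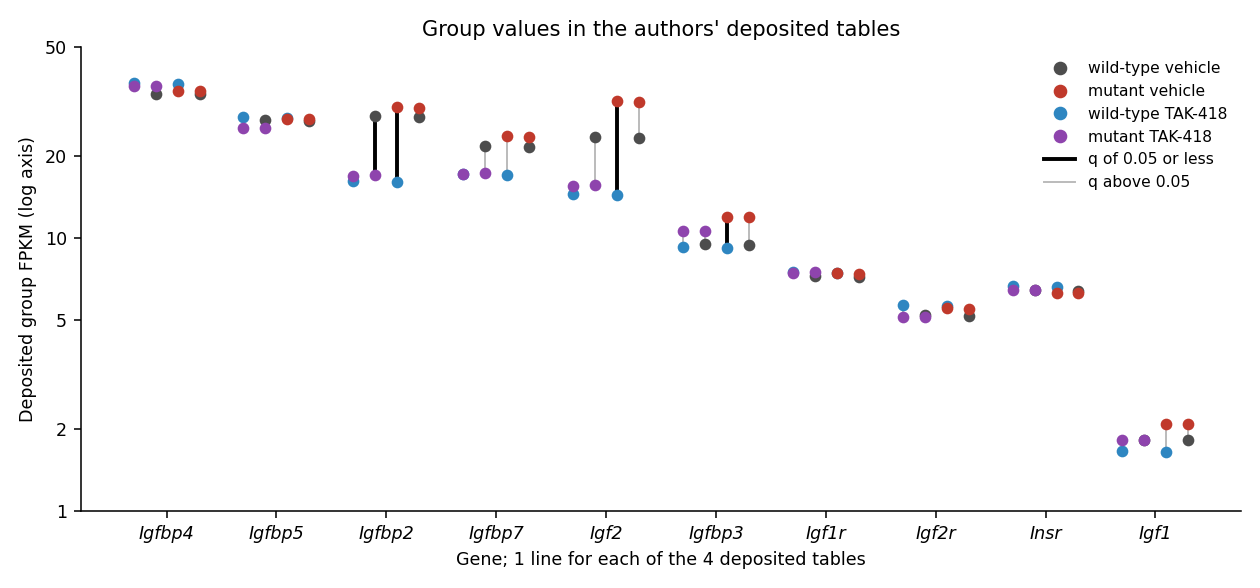
Group FPKM (log axis) of each gene in the authors' 4 deposited tables, 1 vertical line per table joining its 2 groups, with the higher of 2 loci shown for Igfbp3. Black lines, at a q of 0.05 or less, join vehicle mutants and treated wild types for Igf2, Igfbp2 and Igfbp3, and vehicle wild types and treated mutants for Igfbp2.

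Of 63 further genes of IGF and insulin signalling, 58 could be tested (Ins1, Ins2, Igfals, Insrr and Irs4 could not), and 0 had a limma adjusted p under 0.05 in any contrast. At an unadjusted p under 0.05 there were 4 higher and 0 lower for the drug effect in mutants, 6 higher and 0 lower for that in wild types, and 1 higher and 3 lower for the genotype effect under vehicle. The share of all genes, in either direction, was 4.39%, 8.41% and 5.47% for these contrasts. The genotype effect under TAK-418 had 2 higher and 3 lower, and the interaction 2 higher and 3 lower. Over both genotypes the drug effect had 6 higher and 0 lower, and over both treatments the genotype effect had 0 higher and 1 lower. Treated mutants had 2 higher and 0 lower than vehicle wild types, and vehicle mutants 0 higher and 7 lower than treated wild types. For these 6 contrasts, in the order given, the share of all genes was 4.93%, 4.44%, 8.28%, 5.88%, 5.37% and 9.3%.

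Igfbp6, a binding protein with a preference for IGF-II, had the smallest p of the list. It was at 9.03, 8.44 and 7.67 in vehicle wild types, while vehicle mutants had 6.22, 5.76 and 5.96. It was at 11.2, 13.3, 12.1, 7.68 and 13.3 in treated wild types and 12.03, 10.2 and 9.35 in treated mutants. The 3 vehicle mutants lay below all other 11. Such a lack of overlap was seen in 8.19% of all genes for treated against vehicle mutants. For vehicle mutants against treated wild types it was seen in 6.24%. Igfbp6 was picked from the list by its p, and no share was computed for the 3 against the other 11. Treated against vehicle mutants differed by 0.73 (SE 0.164, limma adjusted p = 0.557), mutants against wild types under vehicle by -0.43 (SE 0.164, limma adjusted p = 0.82), and vehicle mutants against treated wild types by -0.83 (SE 0.147, limma adjusted p = 0.189). Over both genotypes the drug difference was 0.56 (SE 0.11, limma adjusted p = 0.23).

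Igfbpl1, a binding protein-like gene of developing neurons, was at 7.33, 5.87 and 10.3 in vehicle wild types and at 13.5, 10.6, 12.6, 12.4 and 10.3 in treated wild types. Vehicle mutants had 9.64, 10.7 and 10.2, and treated mutants 10.98, 9.33 and 11.3. Its drug difference in wild types was 0.57 (SE 0.142, limma adjusted p = 0.279), and the groups overlapped, since vehicle wild type replicate 3 lay above treated wild type replicate 5. Pappa, the gene of the protease that cuts IGFBP-4, was listed at 0 in all 6 vehicle libraries, at 0.308 to 0.393 in 4 of 5 treated wild types and at 0.235 in 1 of 3 treated mutants. All these values lay under the pseudocount of 0.88, so they show whether a transcript was assembled more than a level. Treated wild type replicate 1, which listed Pappa at 0.393, was the deepest library, with a relative depth of 168. Treated wild type replicates 2, 4 and 5, which also listed Pappa, had the fewest single-exon transcripts of low abundance, at 1248, 2688 and 1343. The other libraries had 2968 to 6488, among them treated mutant replicate 3, which listed Pappa, at 5778. The part of depth and assembly in these listings was not tested. The limma adjusted p of Pappa for the drug effect in wild types was 0.451, and no fold is given against a group listed at 0. Rps6kb1, the S6 kinase downstream of the receptors, differed by 0.16 (SE 0.0429, limma adjusted p = 0.673) between treated and vehicle mutants and by -0.11 (SE 0.0429, limma adjusted p = 0.831) between mutants and wild types under vehicle.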

How the data were processed

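RNA of 14 hippocampal libraries was compared in 4 groups taken from the labels. Replicate numbers only name libraries. Kits of NEBNext Ultra and UltraII are named in the labels, with no word on which library used which or on strand. Reads were aligned with TopHat2 2.1.0 to mm10, per the submitters' processing notes, and CLASS 2.1.7 assembled the transcripts, according to the file headers. These deposited assemblies give an abundance score for every transcript. Its FPKM-like scale was read from the values: 93.9% to 98.6% of the single-exon transcripts checked had an abundance times length within 5% of a step of a whole number of steps. The authors' deposited tables hold FPKM values pooled by group, a log2 fold change, a q-value and a p-value for each locus, per the file headers.

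Transcripts were assigned to GENCODE M21 genes (GRCm38) by shared introns, or by at least 50% exon overlap for single-exon ones, and summed. A gene at 0 is one with no assembled transcript. Scaling between libraries used median ratios over 13274 genes. Genes with a value in at least 3 libraries entered limma 3.58.1 (lmFit, eBayes with trend) in R 4.3.3 with a pseudocount of 0.88 (the 10th percentile of listed values) before the log2. The fit was tested on simulated data. Correlations used 100000 resamples. Other steps ran in Python 3.11.15 with scipy 1.17.1, pandas 2.3.3, numpy 2.4.6 and, for plots, matplotlib 3.10.9. Promoter sequences are from RefSeq (GRCm38.p6) and matched by symbol.

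All 10 members are named. A member's log2 difference is given where its unadjusted limma p is under 0.05 or a deposited table calls it, and the further Igf2 differences were chosen after their values were seen. From the signalling list, genes with an unadjusted p under 0.05 and among the 3 smallest of a contrast could be named, and 4 of them are. The members, lists and tests were chosen with earlier results of these data known. The contrast of vehicle mutants with treated wild types and the look at first and leader exons were added after the files were seen.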

Additional observations from a re-analysis of the deposited data

Results flagged for a closer look

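Igfbp3 in the 5 TAK-418-treated wild-type libraries was marked because 1 library stood apart from the others. Replicate 1 had a scaled abundance of 11.9, while the other 4 had 13.96 to 14.7. Its gap to the nearest value was 0.741 of the whole range, above Dixon's critical value of 0.71 for 5 values. Replicate 1 is also the deepest library, with a relative depth of 168, against 35.1 to 59.98 in the others. Of 14 measures screened in this way 1 was marked, and chance marks about 1 in 20. For the interaction of genotype and drug, 0 of 10 members passed the limma test at an adjusted p of 0.05, and 0 had an unadjusted p under 0.05.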

How the results depend on the processing

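In limma, 0 of 10 members were called under each of 222 combinations of contrast and alternative setting (pseudocount, filter, scaling, transcript summary, samples in the fit, 1 library left out, or both libraries high in choroid plexus genes left out). Of 273 refitted differences of the 11 named pairs of member and contrast, 271 kept their direction. The exceptions were Igfbp2 in treated mutants against vehicle wild types, at 0.178 without vehicle wild type replicate 3 and at 0.178 without both libraries; with single libraries left out it ran from -0.757 to 0.178. In one contrast, Igf1r with abundance times transcript length was 1.11 higher in mutants under TAK-418, against 0.35 with a pseudocount 10 times larger. Within the 12 libraries, 0 members were related to the choroid plexus score. For the leptomeningeal score the count was 2 over all 14 libraries, and 1 with a pseudocount 0.1 times as large, 4 with one 10 times larger, 0 with abundances as deposited, 1 with equal summed abundance, 1 with genes divided by their SD, 0 without the 2 farthest, and 1 to 4 when single libraries were left out. The mean share of Igf1 with exon 5 was 6.85%, and 19.05% with each transcript counted once. At a q of 0.01 the deposited table of treated mutants over vehicle wild types called 0 member loci in place of 1, and that of vehicle mutants over treated wild types 2 in place of 3. At that q these tables called 0 of 33991 loci and 0.503% of loci in all. Over all genes, limma calls per contrast ran from 0 to 18. No paired analysis was possible because the labels give no replicate numbers: those used here follow accession order and tie to no litter or batch. Genes at low abundance, such as Igf1, and minor transcript forms are limited by what the assembly lists, and groups of 3 allow no exact p below 0.1.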
